A study of Homo sapiens with 42 samples.

Results

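Accessible chromatin was described at 7 genes of the YAP and TEAD programme, CCN1, CCN2, ANKRD1, AMOTL2, AJUBA, AXL and TEAD1, in 7 human cancer cell lines treated with a chromatin remodelling inhibitor. A peak belonged to a gene when its summit lay inside the gene or within 100 kb of either end, by RefSeq positions on GRCh38. The 7 genes are 7 of 19970 protein-coding genes, and their windows held 8457 of the 9861908 peaks in the 42 lists. The set was chosen with results in view: a site inside CCN1 was present in FHT-1015 samples of A375 and in no DMSO sample of that line. The A375 values are therefore given as a description with no test, and the main tests below use the other 6 lines or some of them. Only the alternatives with all 7 lines, in the last section, include A375, and no support is drawn from them.

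The assay was ATAC-seq, which maps open DNA by the insertion of adapters by a transposase. The lines were 92-1 (uveal melanoma), 22RV1 (prostate), RD (rhabdomyosarcoma), A375 (melanoma), DU4475 (breast), HCT116 (colorectal) and MV411 (acute myeloid leukaemia), all labelled WT in genotype. Cells of each line received DMSO as the negative control or FHT-1015, an inhibitor of both SMARCA4 and SMARCA2, for 4 h, with 3 biological replicates in each of the 14 groups. MV411 is not among the 6 lines of the series' design text. Each tumour type is represented by 1 established cell line in culture, so a line stands for itself and not for its tissue. In bulk samples, fewer cells with an open site and a less open site in each cell cannot be told apart.

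YAP and its relative TAZ are transcriptional co-activators that bind DNA through the TEAD factors, mostly at enhancers and often beside AP-1 sites. The Hippo kinases phosphorylate YAP and TAZ and hold them in the cytoplasm. Several direct targets feed back on the pathway, and others act outside the cell or at its surface. SMARCA4 and SMARCA2 are the alternative ATPases of the BAF complexes, which move nucleosomes and keep many enhancers open.

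The DNA just before the start of 3 of the genes is shown because these stretches hold TEAD cores and lie in or beside sites whose peaks are described below. Each run is the 250 bases before a RefSeq start site (GRCh38.p14), written 5′ to 3′ on the strand of the gene. Capitals mark the TEAD core GGAATG (or CATTCC, the same letters on the opposite strand) and, in ANKRD1, the AP-1 site TGANTCA (N is any base). CCN2 lies at chr6:131951373-131951622, ANKRD1 at chr10:90921088-90921337 and the inner AMOTL2 start at chr3:134374448-134374697, all on the minus strand.
CCN2: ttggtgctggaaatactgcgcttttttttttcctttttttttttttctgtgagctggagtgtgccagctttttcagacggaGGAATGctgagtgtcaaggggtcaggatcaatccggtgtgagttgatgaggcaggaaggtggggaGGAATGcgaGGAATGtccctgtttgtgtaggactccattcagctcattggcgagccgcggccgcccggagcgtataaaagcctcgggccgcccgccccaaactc
ANKRD1: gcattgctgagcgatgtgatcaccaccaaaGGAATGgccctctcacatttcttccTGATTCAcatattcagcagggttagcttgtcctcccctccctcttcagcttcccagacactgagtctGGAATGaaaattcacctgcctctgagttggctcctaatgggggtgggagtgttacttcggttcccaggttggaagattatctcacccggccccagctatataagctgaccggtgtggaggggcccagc
AMOTL2: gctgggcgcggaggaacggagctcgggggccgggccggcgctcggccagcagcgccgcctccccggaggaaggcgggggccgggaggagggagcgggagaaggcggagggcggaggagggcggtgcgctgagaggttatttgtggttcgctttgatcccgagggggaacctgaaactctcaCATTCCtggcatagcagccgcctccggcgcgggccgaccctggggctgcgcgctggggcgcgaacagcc

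The CCN2 run held 3 TEAD cores, at 169 to 164, 104 to 99 and 95 to 90 bases before the start. Of 22155 RefSeq promoters of the same length, 2321 (10.5%) held at least 1 core on either strand and 17 (0.0767%) held 3 or more. The ANKRD1 run held 2 cores, at 220 to 215 and 128 to 123 bases, with the AP-1 site between them at 195 to 189 bases. The AP-1 letters occurred in 5.36% of the promoters. The inner AMOTL2 start had 1 core on the opposite strand, 69 to 64 bases before it, in a run of 73.6% G and C with 29 CpG pairs. AJUBA and AXL each had 1 core before their second listed start, at chr14:22976843-22977092 and chr19:41226505-41226754, and none before the first. No SRF-type CArG box, which 1.18% of the promoters held, was found in the windows of these 5 genes. These are matches of letters in short windows and not measured binding. CCN1 and TEAD1 have no sequence shown.

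Peaks called strict below have −log10 q of at least 5, where q is the authors' own false discovery estimate. The fold enrichment, q and rank of a peak are also the authors' values, used only within the list of the same sample. Lists held 114291 to 431956 peaks, of which 1412 to 121774 were strict. Read depth is unknown. A background pileup recovered from the deposited values, 0.0341 to 2.79 per sample, stood in for it. The 92-1 FHT-1015 replicates 2 and 3 stood apart with 2037 and 1412 strict peaks, against 14266 to 66350 in the DMSO samples of that line. In MV411 the background was 0.454 ± 0.0487 (SD, n = 3) with DMSO and 0.266 ± 0.00513 (SD, n = 3) with FHT-1015. In 22RV1 the order was the opposite, 0.633 ± 0.0892 and 0.894 ± 0.126 (SD, n = 3). A375 also had the higher mean with FHT-1015, 0.729 ± 0.154 and 1.11 ± 0.35 (SD, n = 3), though its samples overlapped. Its DMSO replicate 3 had 26365 strict peaks, against 60943 and 65602 in replicates 1 and 2. Within 1 kb of gene ends in DMSO samples, RD had strict peaks at 3 of 4 muscle markers, MV411 at 4 to 5 of 5 myeloid markers, and 22RV1 and DU4475 at 5 of 5 epithelial markers. A375 had 1 to 4 and 92-1 had 0 to 4 of 5 melanoma markers, and HCT116 had 2 to 5 of 5 epithelial and 0 to 1 of 3 intestinal markers. 22RV1 had 2 to 3 and DU4475 had 2 of the 3 intestinal markers, more than HCT116. The ends of MITF and PMEL, which belong to the melanoma list, were also open in the other lines.

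All 7 genes had fewer strict peaks with FHT-1015 over the 6 tested lines. The genome moved with them: by the exact permutation test stratified by line with Benjamini-Hochberg adjustment, 17133 of 19866 genes were lower, which is 86.2%, and 0 were higher (17366 lower and 0 higher at an unadjusted p under 0.05). The 7 genes kept a median of 47.7% of their DMSO peaks, between 39.7% for AMOTL2 and 77.4% for AJUBA. The median over all genes was 64.5%, with quartiles of 53.1% and 74.8%. AMOTL2, TEAD1, ANKRD1 and CCN1 lay below the lower quartile of the genome, with 7.39%, 8.86%, 13.9% and 16.1% of genes keeping a smaller share. CCN2 lay at 31.7%, AXL at 66% and AJUBA at 80.7%. These places hold for strict peaks. Among the 20000 strongest peaks of each list the median was 112% for the 7 genes and 111% for all. There TEAD1 lay at 62.6%, ANKRD1 at 72.4%, CCN1 at 39.5% and AMOTL2 at 2.05%. Those places include 92-1, where list order could decide among tied peaks of FHT-1015 samples, as described below. After the thinning described below, AMOTL2 lay at 13.2%, TEAD1 at 18.9%, ANKRD1 at 5.48% and CCN1 at 25.3%. Without 92-1, all 7 genes remained lower among strict peaks, with adjusted p of at most 0.0117 by the same exact test. Without MV411, AJUBA (adjusted p = 0.107) and AXL (adjusted p = 0.0766) no longer passed the exact permutation test.

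FHT-1015 lists held fewer strict peaks in every line by their means, so the order of peaks within a list was compared as well. Lists cut to the 20000 strongest peaks of each sample by p-value have equal length. Peaks with equal p-values were taken in the order of the list. In FHT-1015 replicates 2 and 3 of 92-1 the cut fell at −log10 q of 1.8 and 1.71. Peaks with these values already stood at ranks 10424 and 8364, so list order could decide which peaks were kept. In the cut lists, 748 of 19825 genes (3.77%) were lower and 3529 (17.8%) were higher. AMOTL2 was the 1 gene of the 7 that passed, and it was lower. The other 6 genes differed by −0.67 to 0.89 peaks between treatments, and none passed the exact permutation test. In the lists as deposited, 0 genes passed in either direction by the exact permutation test (3874 lower and 6 higher at an unadjusted p under 0.05), and the adjusted p of the 7 genes lay between 0.272 and 0.765. After the samples of 5 lines (all tested lines but 92-1) were thinned to 1 background per line, 9732 of 19869 genes (49%) were lower and 2 (0.0101%) higher. All 7 genes were among the lower ones there, with adjusted p of 0.00719 to 0.0408 by the exact permutation test.

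**Figure D1:**
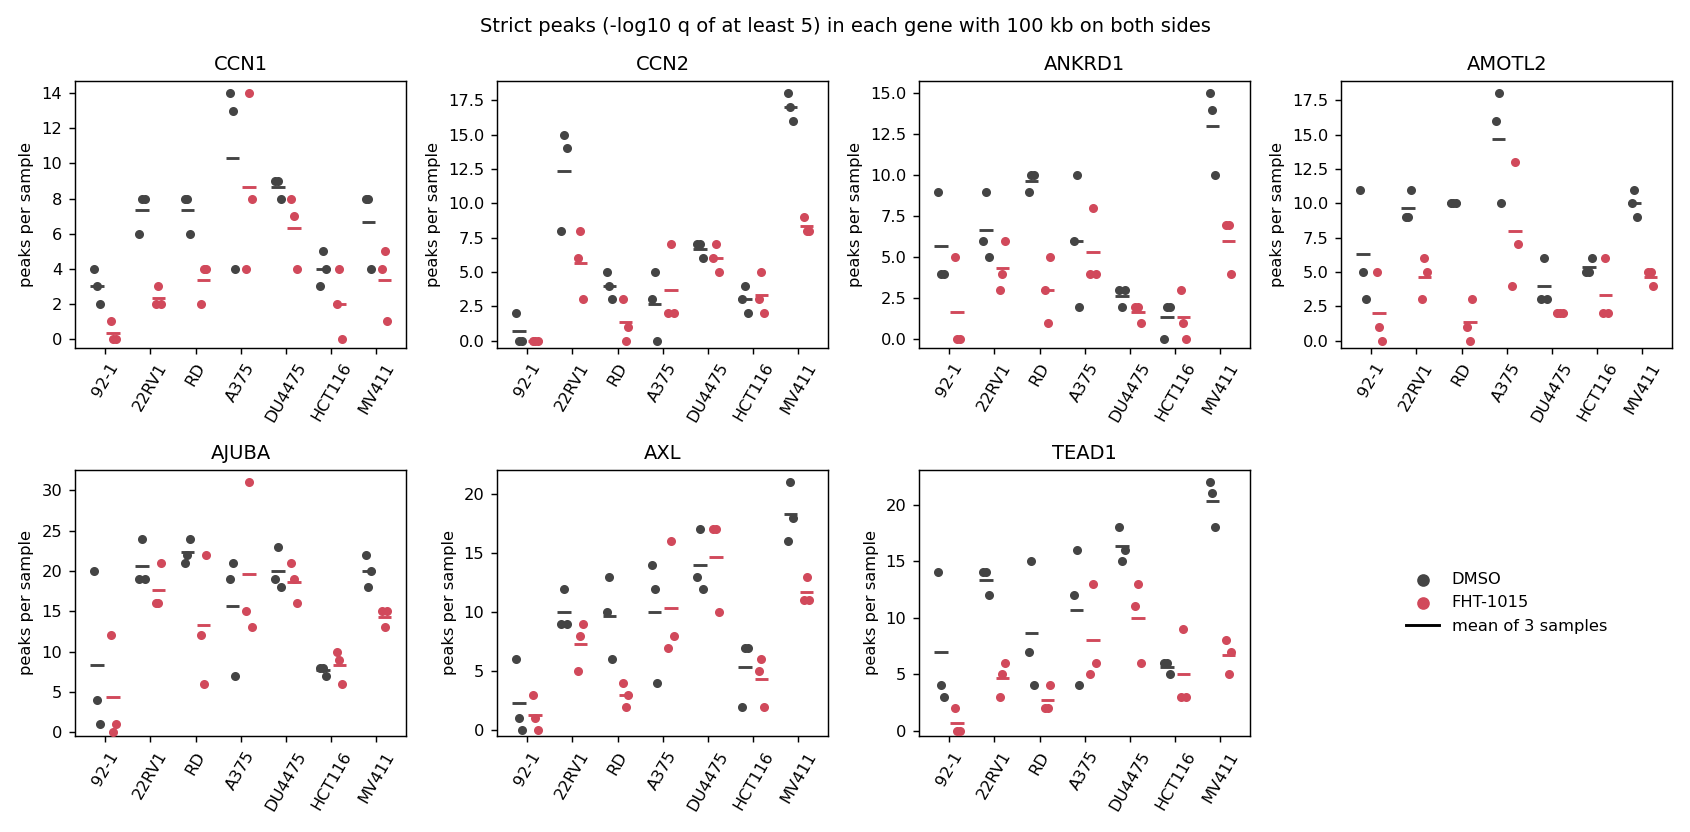
Strict peaks (y axis, number per sample) in the window of each of the 7 genes, by cell line (x axis), with 3 DMSO samples in grey and 3 FHT-1015 samples in red and a bar at each mean. AMOTL2 in RD had 10 peaks in every DMSO sample and 0 to 3 with FHT-1015, while the A375 groups overlapped in all 7 panels.

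**Figure D2:**
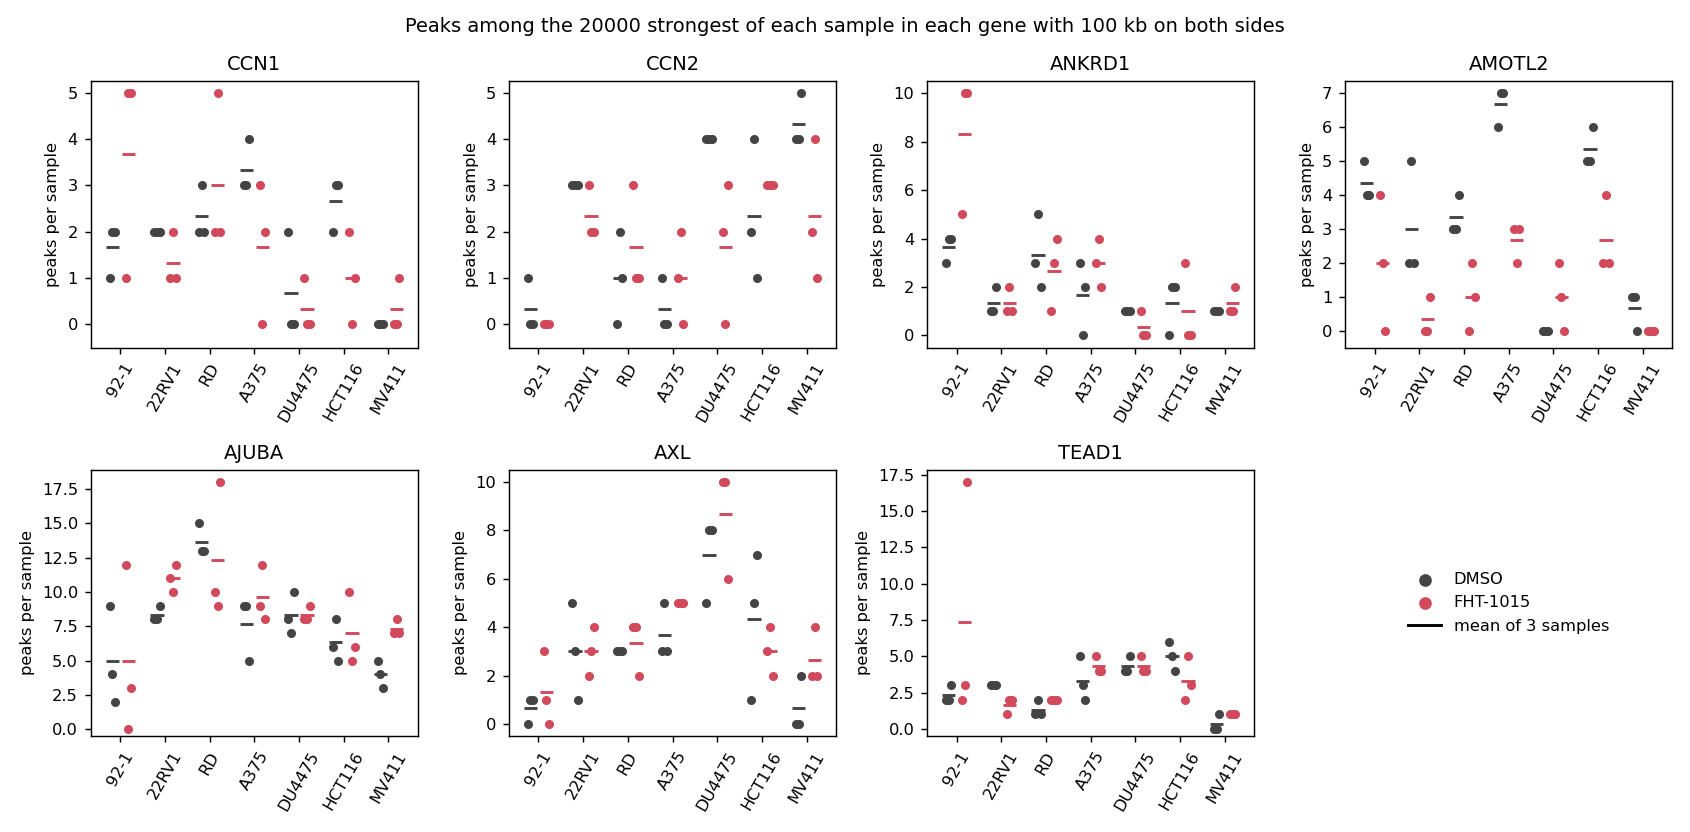
The same plot for the 20000 strongest peaks of each sample (y axis, number per sample), which removes the difference in list length. AMOTL2 with FHT-1015 lay below every DMSO sample in 22RV1, RD, A375 and HCT116, whereas the other genes showed no such order in more than 1 line.

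CCN1 encodes a secreted matrix protein of the CCN family (formerly CYR61) that binds integrins, and it is among the most used readouts of YAP activity. The gene lies at chr1:85580761-85583950, and its window also reaches DDAH1 and ZNHIT6. In 22RV1 the DMSO samples had 6, 8 and 8 strict peaks and the FHT-1015 samples 2, 3 and 2. The RD samples had 8, 8 and 6 with DMSO and 2, 4 and 4 with FHT-1015, and the 92-1 samples 4, 3 and 2 against 1, 0 and 0. The groups did not overlap in these 3 lines. They overlapped in DU4475 (9, 9 and 8 against 8, 7 and 4), HCT116 (3, 5 and 4 against 2, 4 and 0) and MV411 (8, 8 and 4 against 4, 5 and 1). The A375 samples, with 14, 13 and 4 against 4, 14 and 8, overlapped over their whole range. The mean over the 6 tested lines was 6.17 with DMSO and 2.94 with FHT-1015, a difference of −3.22 peaks (adjusted p = 5.4e-05, exact permutation test), and the mean was lower in 6 of 6 lines. In lists of equal length the means were 1.56 and 1.61, a difference of 0.06 (adjusted p = 1, same exact test). In 92-1 those counts were 1, 2 and 2 against 1, 5 and 5, and list order could decide among tied peaks there.

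The CCN1 site that led to the choice lies at chr1:85582350-85582849, inside the gene. In A375 no DMSO sample had any peak there, strict or weak. The 3 FHT-1015 samples had folds of 4.21, 4.98 and 4.81 and −log10 q of 6.98, 16.6 and 8.41, at ranks 21067, 26138 and 20524 of their lists. These are moderate peaks, outside the strongest 20000 in each sample. When a call needed an overlap of 250 bp, 1 of the 3 FHT-1015 samples of A375 was called and the site no longer counted as gained. In the 6 other lines, 5 of 18 DMSO samples and 0 of 18 FHT-1015 samples had a strict peak (p = 0.05 by the exact test, adjusted p = 0.642). The 5 samples were 2 of 22RV1 and 1 each of 92-1, HCT116 and MV411. None of the 5 was called with an overlap of 250 bp, which a peak shorter than 250 bp cannot reach. In HCT116, the FHT-1015 samples had weak peaks there with −log10 q of 2.22, 4.64 and 2.13. RD and DU4475 had no peak in any sample.

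At the lower end of CCN1, the site chr1:85581162-85581661 was strict in 16 of 21 DMSO and 16 of 21 FHT-1015 samples. In A375 its folds were 4.22, 4.7 and 4.06 with DMSO and 4.42, 4.28 and 4.59 with FHT-1015, so the peak beside the gained site had values that overlapped between treatments. In 22RV1 they were 9.54, 12.3 and 6.56 with DMSO and 7.08, 11.7 and 9.53 with FHT-1015. Another kind of site lay 53.4 kb away at chr1:85527100-85527599, inside DDAH1. It was strict in 3 of 3 DMSO samples of 92-1 (folds of 16.6, 11 and 7.09) and in 0 of 3 with FHT-1015. In A375 it was strict in 2 DMSO samples and in no FHT-1015 sample. Over the 7 lines it was strict in 6 DMSO and 0 FHT-1015 samples, 3 of them from a line whose FHT-1015 lists were short.

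**Figure D3:**
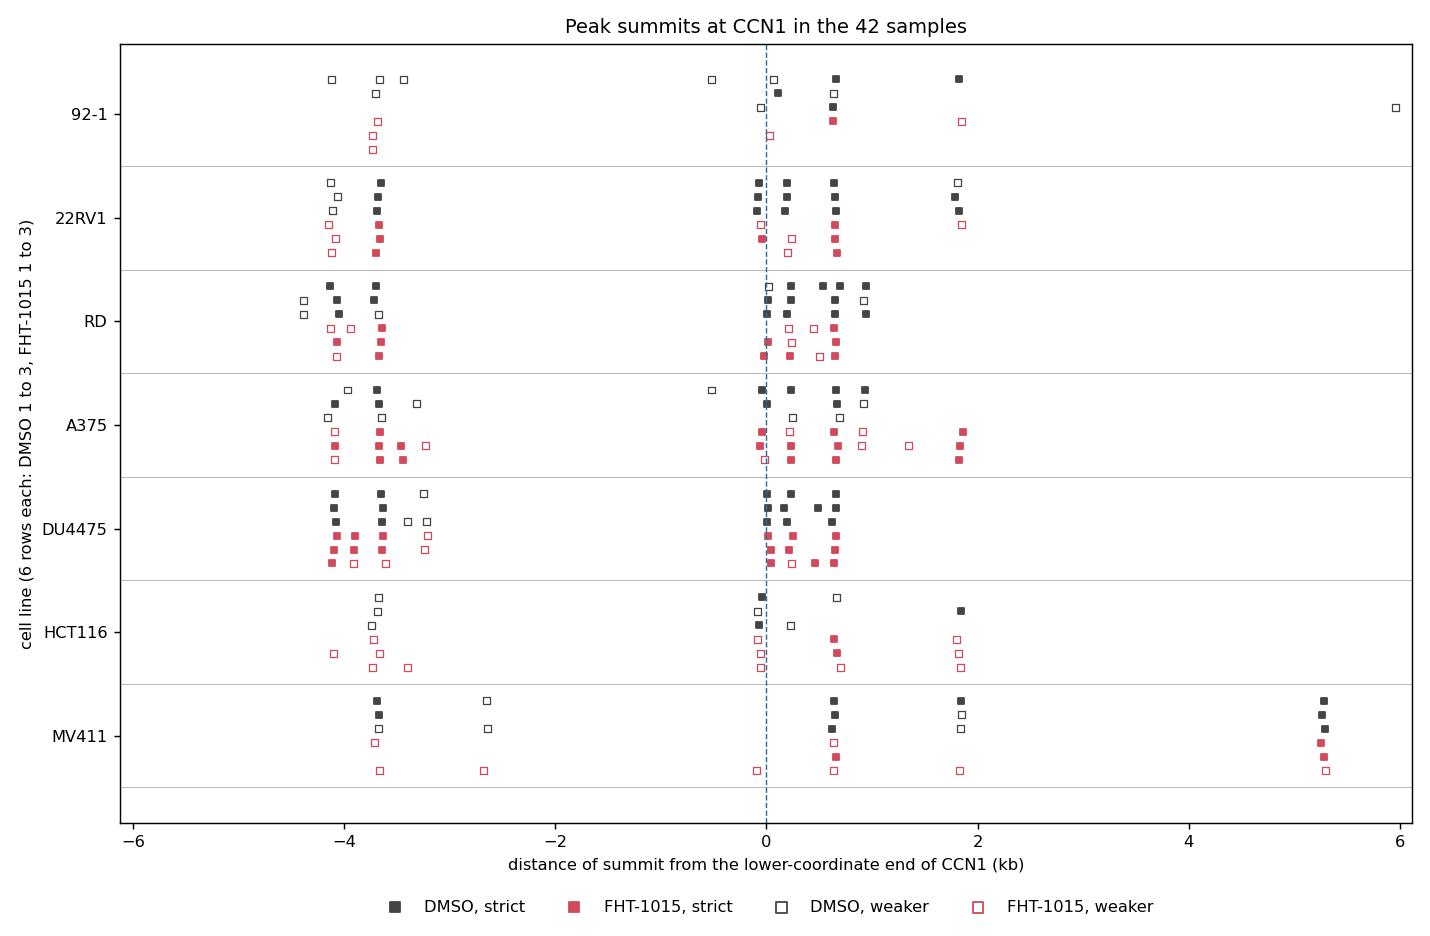
Summits of peaks around CCN1 (x axis, distance in kb from the lower-coordinate end of the gene) in the 42 samples (rows, grouped by line), filled for strict peaks and open for weaker ones. The column of summits near 0.65 kb is present under both treatments in most lines, and the column near 1.8 kb holds strict peaks in A375 only with FHT-1015 and in the other lines only with DMSO.

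CCN2, also called CTGF, is the sister gene of CCN1 and encodes a secreted factor that promotes matrix deposition. It lies on the minus strand at chr6:131948176-131951372, and its window also reaches ENPP1. MV411 had the most strict peaks, 18, 17 and 16 with DMSO, and had 9, 8 and 8 with FHT-1015, so its groups did not overlap. In 22RV1 the counts were 8, 15 and 14 against 6, 8 and 3, and in RD 5, 4 and 3 against 3, 0 and 1. DU4475 had 7, 7 and 6 against 6, 7 and 5, and HCT116 3, 4 and 2 against 3, 5 and 2. The 92-1 samples had 2, 0 and 0 against 0 in all 3, and A375 had 3, 5 and 0 against 2, 7 and 2. The groups overlapped in the 6 lines other than MV411. Over the 6 tested lines the mean was 7.28 with DMSO and 4.11 with FHT-1015, a difference of −3.17 (adjusted p = 0.00132, exact permutation test), lower in 5 of 6 lines. At equal length the means were 2.5 and 1.83, a difference of −0.67 (adjusted p = 0.24, exact permutation test). In DU4475 the counts at equal length were 4, 4 and 4 against 2, 0 and 3, which did not overlap (2.22% of genes).

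The site over the printed CCN2 run, chr6:131951194-131951693, was strict in 12 of 21 DMSO and 8 of 21 FHT-1015 samples (p = 0.18 over the 6 lines by the exact test, adjusted p = 1). DU4475 had it in all 6 samples, 22RV1 in 2 DMSO samples and no FHT-1015 sample, and MV411 in none. Inside CCN2, 0.741 kb from its start, the site chr6:131950381-131950880 was strict in 15 of 21 DMSO and 13 of 21 FHT-1015 samples. The folds in DU4475 were 10.2, 8.83 and 7.64 with DMSO and 7.47, 5.85 and 8.43 with FHT-1015, and those in MV411 were 6.48, 6.07 and 5 against 7.87, 5.88 and 8.43. Both lines had it in every sample. With an overlap of 250 bp DU4475 still did, while MV411 had 0 of 3 DMSO and 1 of 3 FHT-1015 samples called. A distal site 6.62 kb upstream, chr6:131957745-131958244, was seen as a strict peak in 22RV1 alone. Its folds were 8.88, 9.93 and 10.5 in the DMSO samples. With FHT-1015, 2 samples of 22RV1 had no peak and the third had a weak one with a −log10 q of 1.29.

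ANKRD1 encodes a nuclear ankyrin-repeat protein of heart and skeletal muscle that is also a direct YAP target in many cultured cells. It lies on the minus strand at chr10:90912096-90921087, with HTR7 and RPP30 in reach of its window. RD, the line of muscle origin, had 9, 10 and 10 strict peaks in DMSO against 3, 1 and 5. MV411 had 15, 14 and 10 against 7, 7 and 4. The groups did not overlap in these 2 lines and overlapped in the other 5. 92-1 had 9, 4 and 4 against 5, 0 and 0, and 22RV1 6, 9 and 5 against 3, 4 and 6. DU4475 had 3, 2 and 3 against 2, 2 and 1, HCT116 0, 2 and 2 against 3, 1 and 0, and A375 6, 10 and 2 against 4, 8 and 4. The mean over the tested lines was 6.5 with DMSO and 3 with FHT-1015, a difference of −3.50 (adjusted p = 0.000417, exact permutation test), lower in 5 of 6 lines. At equal length it was 1.94 and 2.5, a difference of 0.56 (adjusted p = 0.555, exact permutation test). FHT-1015 replicates 2 and 3 of 92-1, those with the fewest strict peaks, had 10 peaks each in that count, against 3, 4 and 4 with DMSO. In these replicates list order could decide among tied peaks, as described above.

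The start of ANKRD1, where the sequence with 2 TEAD cores and the AP-1 site lies, had a strict peak in RD alone. The site chr10:90921075-90921574 had folds of 10.3, 8.79 and 9.23 in the DMSO samples of RD. With FHT-1015 the folds were 3.78, 2.93 and 4.26, with −log10 q of 2.37, 0.779 and 3.16, so weak peaks persisted below the strict limit. The site chr10:90931024-90931523, 10.2 kb upstream, was lost in 2 lines, RD and MV411, where lost means strict in 3 of 3 DMSO and 0 of 3 FHT-1015 samples. Its folds were 6.26, 8.17 and 5.66 in RD and 7.87, 8.19 and 7.04 in MV411 with DMSO. No MV411 sample had any peak there with FHT-1015. RD had weak ones with folds of 3.4, 2.49 and 3.64. The exact test over the 6 lines gave p = 0.005 and an adjusted p of 0.642 for this site. With an overlap of 250 bp it counted as lost in RD only, with 2 of 3 DMSO samples called in MV411.

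AMOTL2 encodes an angiomotin, a junction protein that binds YAP and holds it outside the nucleus, and its gene is itself activated by YAP. It lies on the minus strand at chr3:134355345-134375417, with start sites at 134375417 and 134374447, and no other protein-coding gene lies in its window. RD had 10 strict peaks in each DMSO sample and 1, 0 and 3 with FHT-1015. 22RV1 had 9, 9 and 11 against 3, 6 and 5, and MV411 had 10, 11 and 9 against 5, 5 and 4. The groups were apart in these 3 lines and in DU4475, with 3, 6 and 3 against 2, 2 and 2. They overlapped in 92-1 (11, 5 and 3 against 5, 1 and 0), HCT116 (5, 5 and 6 against 2, 6 and 2) and A375 (16, 18 and 10 against 4, 13 and 7). Over the tested lines the mean was 7.56 with DMSO and 3 with FHT-1015, a difference of −4.56 (adjusted p = 5.76e-05, exact permutation test), lower in 6 of 6 lines.

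Among the 20000 strongest peaks, AMOTL2 averaged 2.78 with DMSO and 1.17 with FHT-1015, a difference of −1.61 (p = 0.000433, adjusted p = 0.00581, exact permutation test), and 2.05% of genes kept a smaller share. 22RV1 had 2, 5 and 2 against 0, 0 and 1, RD 3, 3 and 4 against 0, 2 and 1, and HCT116 5, 5 and 6 against 2, 4 and 2. In each of these 3 lines the groups did not overlap, which was so for 6.86%, 4.82% and 2.07% of genes on the lower side. A375, untested, had 6, 7 and 7 against 3, 2 and 3, also apart (5.62% of genes). 92-1 had 5, 4 and 4 against 4, 2 and 0, where list order could decide among tied peaks of FHT-1015 samples. MV411 had 1, 1 and 0 against 0 in all 3, and the groups of both lines overlapped. DU4475 went the opposite way, with 0 in every DMSO sample and 2, 1 and 0 with FHT-1015. In DMSO, A375 had the most AMOTL2 peaks at equal length, then HCT116, 92-1, RD, 22RV1, MV411 and DU4475. Neighbours in that order overlapped, except 22RV1 and MV411. Without 92-1 the difference was −1.47 and passed (adjusted p = 0.0211, exact permutation test). With a window of 25 kb in place of 100 kb the difference was −0.94 and no longer passed (adjusted p = 0.0611, exact permutation test). With the 10000 or 40000 strongest peaks it was −0.78 (adjusted p = 0.00929) or −2.67 (adjusted p = 0.0015, both by the same exact test). These 2 lengths were added after the result was seen.

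At the level of single sites, the AMOTL2 site chr3:134374376-134374875, which spans the inner start and the sequence printed above, was strict in 21 of 21 DMSO samples and in 13 of 21 with FHT-1015. The exact test over the 6 lines, with 18 DMSO and 10 FHT-1015 samples, gave p = 0.004 and an adjusted p of 0.642. In MV411 its folds were 15.9, 12.6 and 12.3 with DMSO, and 6.62 and 7.79 with no peak in the third sample with FHT-1015. In DU4475 the folds were 5.82, 5.06 and 4.54 with DMSO and 7.08, 7.62 and 5.86 with FHT-1015, so there the FHT-1015 values lay above. A375 kept the site in every sample, with folds of 7.48, 6.08 and 5.71 against 5.76, 6.04 and 5.78.

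The second AMOTL2 site, chr3:134364019-134364518, lies inside the gene 10.2 kb downstream of the inner start. It was strict in 11 DMSO samples and 1 FHT-1015 sample of all 7 lines, and lost in 92-1 and RD. In 92-1, whose FHT-1015 lists were short, FHT-1015 replicates 1 and 2 still had a weak peak there. In HCT116 its folds were 9.66, 7.32 and 14.9 with DMSO and 3.01, 7.49 and 4.15 with FHT-1015. In RD they were 6.08, 4.63 and 6.6 with DMSO, and with FHT-1015 a single weak peak of 2.94 was listed. A375 had folds of 4.81 and 4.6 in 2 DMSO samples, none in the third, and weak peaks of 2.3 and 2.92 in 2 FHT-1015 samples. The exact test over the 6 lines (9 against 1 samples) gave p = 0.001 and an adjusted p of 0.642. 22RV1, DU4475 and MV411 had no strict peak there under either treatment.

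**Figure D4:**
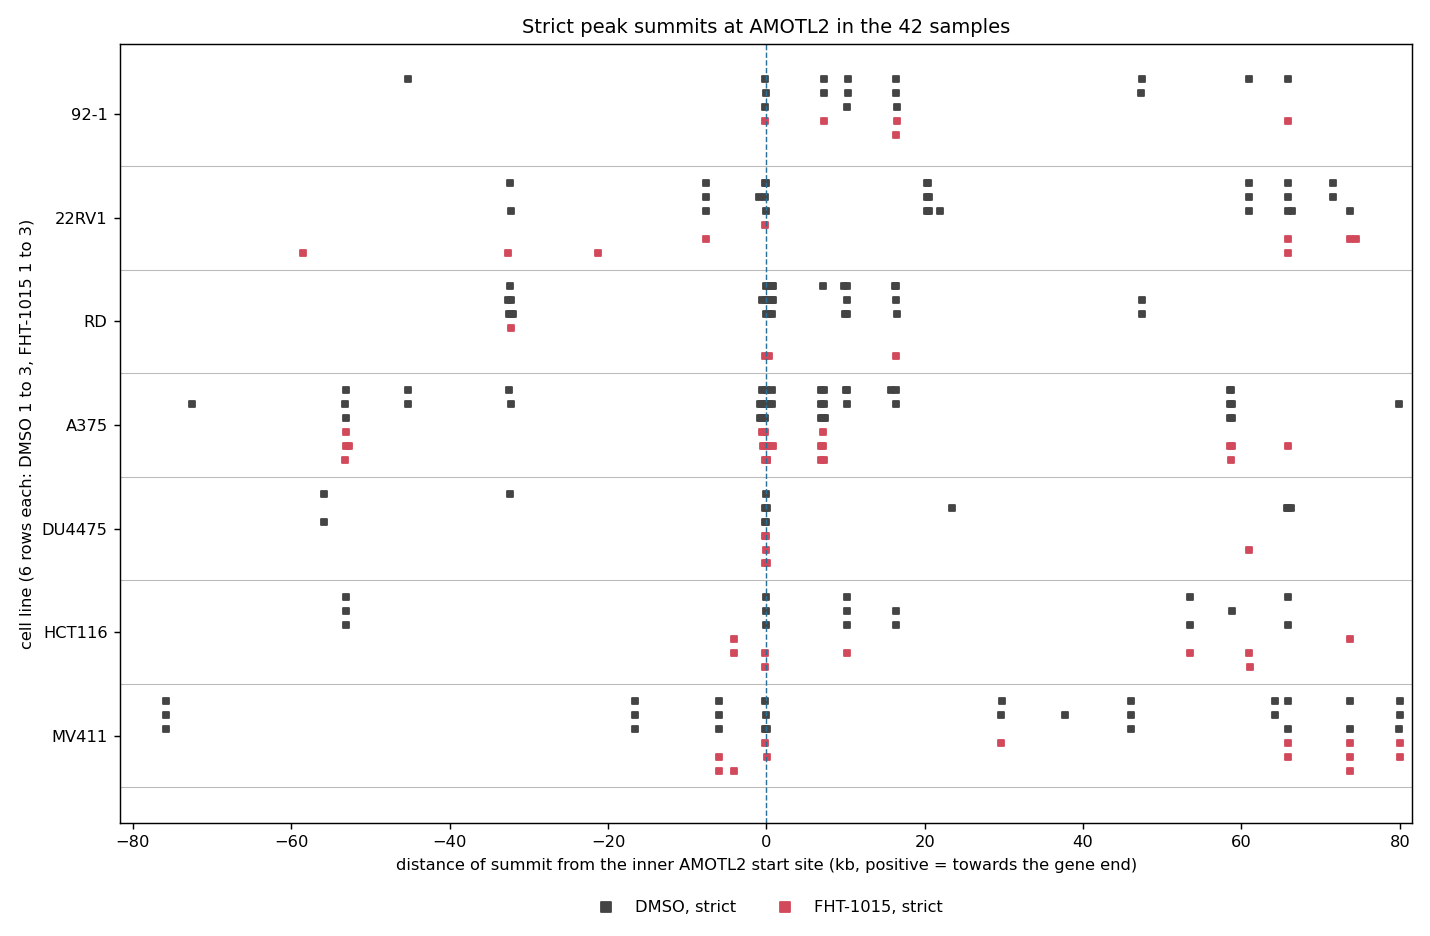
Strict peak summits around AMOTL2 (x axis, distance in kb from the inner start site, positive towards the end of the gene) in the 42 samples (rows, grouped by line; grey DMSO, red FHT-1015). The column at 0 is the start site seen in 21 of 21 DMSO samples, and the column near 10 kb is the internal site with 11 DMSO samples and 1 FHT-1015 sample.

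AJUBA encodes a LIM-domain adaptor that binds the LATS kinases and lowers their activity towards YAP. It lies on the minus strand at chr14:22971177-22982551 in a gene-dense region, and 10 other genes lie in reach of its window, among them LRP10, PRMT5 and ACIN1. Strict peaks were many: 22RV1 had 19, 24 and 19 with DMSO against 16, 16 and 21, and DU4475 19, 23 and 18 against 21, 19 and 16. MV411 had 22, 18 and 20 against 15, 13 and 15 and was the only line whose groups did not overlap. RD had 21, 22 and 24 against 12, 6 and 22, and HCT116 8, 8 and 7 against 10, 9 and 6. 92-1 had 20, 4 and 1 against 12, 0 and 1, and A375 19, 21 and 7 against 15, 31 and 13. The mean was 16.5 with DMSO and 12.8 with FHT-1015, a difference of −3.72 (adjusted p = 0.0259, exact permutation test), lower in 5 of 6 lines. That call rested on few samples: without DMSO replicate 1 or FHT-1015 replicate 2 or 3 of 92-1 the adjusted p was 0.0638, 0.0627 or 0.0598 by the exact permutation test. At equal length the means were 7.61 and 8.5, a difference of 0.89 (adjusted p = 0.575, exact permutation test). AJUBA was then higher with no overlap in 22RV1 (8, 8 and 9 against 11, 10 and 12) and in MV411 (5, 4 and 3 against 7, 8 and 7), as were 19% and 29.8% of genes.

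The first start of AJUBA, at chr14:22982351-22982850, was the other site gained in A375. There the DMSO samples had weak peaks with −log10 q of 2.34 and 2.64 and no peak in the third. The FHT-1015 samples had −log10 q of 5.38, 17.1 and 8.66 and folds of 4.09, 5.8 and 6.01. In the 6 other lines it was strict in 8 of 18 DMSO and 6 of 18 FHT-1015 samples (p = 0.7, exact test). MV411 had it in 3 DMSO samples and 1 FHT-1015 sample. A site inside ACIN1, chr14:23071363-23071862, was lost in RD, with folds of 8.94, 7.31 and 7.91 against weak peaks of 3.78, 4.45 and 4.49. It was strict in all 6 samples of both 22RV1 and MV411.

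AXL encodes a receptor tyrosine kinase for the ligand GAS6 that is linked to invasion and drug tolerance in melanoma and other tumours. It lies on the plus strand at chr19:41219223-41261766, with start sites at 41219223 and 41226755, and 7 other genes including TGFB1 are in reach of its window. RD had 10, 13 and 6 strict peaks with DMSO against 4, 2 and 3, and MV411 16, 21 and 18 against 11, 13 and 11. The groups did not overlap in these 2 lines. They did in 22RV1 (9, 12 and 9 against 5, 8 and 9), HCT116 (2, 7 and 7 against 5, 6 and 2) and 92-1 (6, 1 and 0 against 3, 1 and 0). DU4475 had 13, 17 and 12 against 17, 17 and 10, and A375 14, 12 and 4 against 7, 16 and 8, also overlapping. The mean was 9.94 with DMSO and 7.06 with FHT-1015, a difference of −2.89 (adjusted p = 0.00859, exact permutation test), lower in 5 of 6 lines. Within 25 kb the difference was −0.44 and did not pass (adjusted p = 0.514, exact permutation test). In lists of equal length it was 0.56 (adjusted p = 0.562, exact permutation test).

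The AXL site chr19:41226025-41226524 lies 0.48 kb before the second start, next to the stretch with the reversed TEAD core. In A375 it was strict in all 6 samples, with folds of 6.55, 7.14 and 5.12 with DMSO and 4.54, 6.15 and 5.93 with FHT-1015. In RD it was lost: folds of 5.11, 6 and 5.22 with DMSO were followed by weak peaks of 2.53 and 5.17 and no peak in the third sample. HCT116 had 2 strict DMSO samples and none with FHT-1015, and DU4475 had none with DMSO and 1 with FHT-1015. 22RV1, 92-1 and MV411 had no strict peak there. The exact test over the 6 lines (5 against 1 samples) gave p = 0.14.

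TEAD1 encodes one of the TEAD factors, which bring YAP and TAZ to DNA. Its gene spans chr11:12674421-12944737, so its window of 470 kb is the widest of the set, and RASSF10 is also in reach. MV411 had 22, 21 and 18 strict peaks in DMSO against 8, 5 and 7. 22RV1 had 14, 14 and 12 against 3, 5 and 6, DU4475 18, 15 and 16 against 11, 13 and 6, and 92-1 14, 4 and 3 against 2, 0 and 0. The groups did not overlap in these 4 lines. In RD (7, 15 and 4 against 2, 2 and 4), HCT116 (6, 6 and 5 against 3, 9 and 3) and A375 (12, 16 and 4 against 5, 13 and 6) they did. The mean was 11.9 with DMSO and 4.94 with FHT-1015, a difference of −6.94 (adjusted p = 6.25e-05, exact permutation test), lower in 6 of 6 lines. At equal length the difference was 0.56 (adjusted p = 0.998, exact permutation test), where FHT-1015 replicate 3 of 92-1 had 17 peaks against 2 to 3 in the DMSO samples of that line. In that replicate list order could decide among tied peaks.

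The TEAD1 start, at chr11:12673983-12674482, was strict in 18 of 21 DMSO and 15 of 21 FHT-1015 samples. The folds in 22RV1 were 14.7, 16.7 and 16.6 with DMSO and 17.7, 14.6 and 17 with FHT-1015, which overlapped. DU4475 had 13.2, 11.8 and 11.2 against 13.8, 11.7 and 12.1. MV411 had no strict peak at the start in any sample, yet its DMSO samples had the most strict peaks in the window. Those samples also had the most strict peaks genome-wide, 105420 to 121774. At equal length they had 0, 0 and 1 peaks in the TEAD1 window, the lowest DMSO mean of the lines. A site inside the gene, 72.3 kb from the lower end at chr11:12746478-12746977, was strict in 9 DMSO samples and 1 FHT-1015 sample (p = 0.006, adjusted p = 0.642, exact test over the 6 lines). It was lost in RD and HCT116, and with an overlap of 250 bp in RD only. In HCT116 the folds were 6.77, 11 and 6.15 with DMSO and 2.59, 3.85 and 3.79 with FHT-1015, and in RD they were 8.67, 5.71 and 5.95 with no peak at all after FHT-1015. The 1 FHT-1015 sample came from 22RV1.

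**Figure D5:**
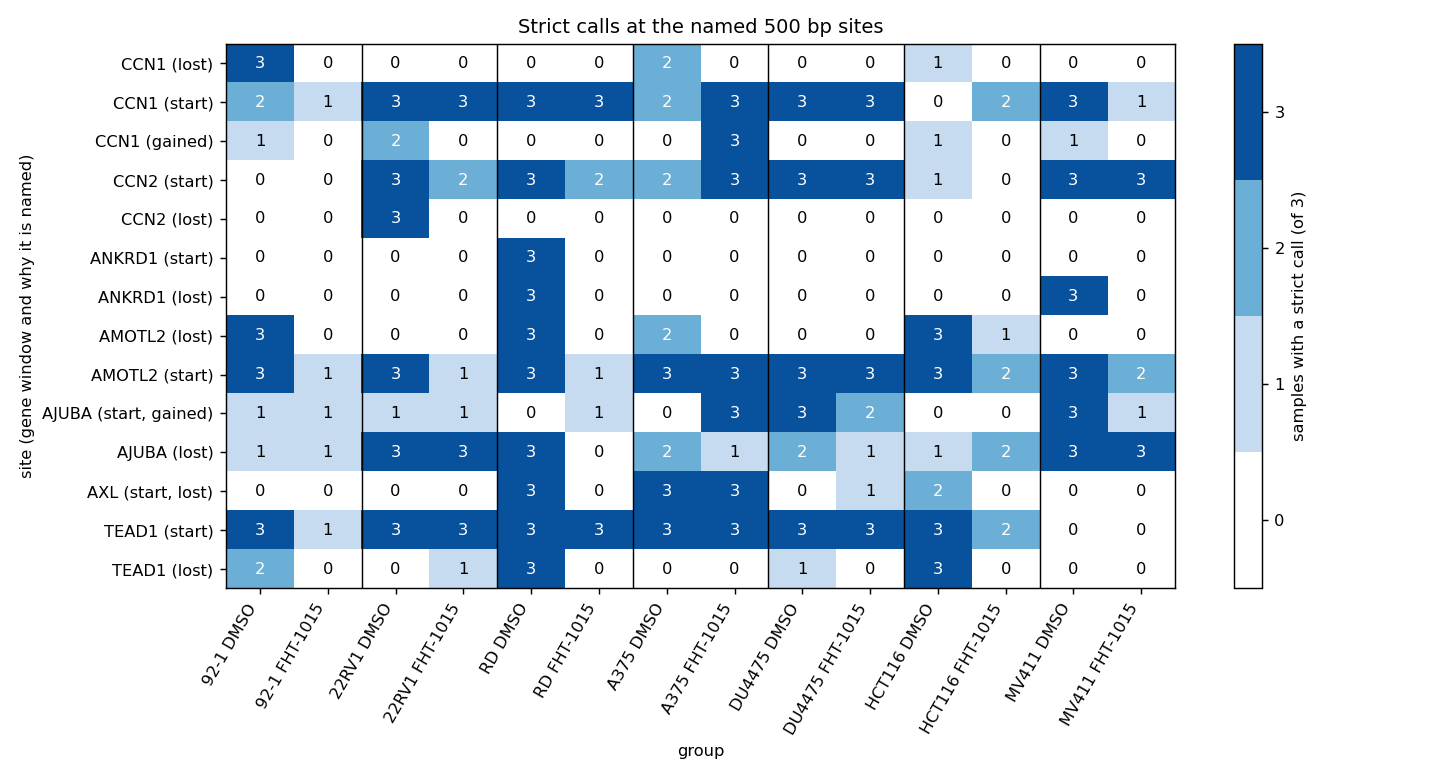
Number of samples (0 to 3, colour and digit) with a strict peak at 14 named sites of 500 bp (rows, with the gene and the reason for naming) in the 14 groups (columns). Sites at the starts of CCN1, CCN2 and TEAD1 are filled under both treatments in most lines, and the internal AMOTL2 and TEAD1 sites have 1 FHT-1015 sample each.

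The windows of the 7 genes held 274 strict regions of 500 bp. Counting each line once, 52 losses and 3 gains were seen, and the losses fell at 49 regions. MV411 had 22 losses (15.6% of its member regions, 15.5% of all its regions), RD 12 (18.2% and 12.7%) and 22RV1 11 (9.82% and 8.83%). HCT116 had 3 (4.35% and 1.48%), 92-1 had 2 (3.17% and 5.3%) and DU4475 had 2 (2.82% and 3.62%). A375 had 0 losses (2.59% of its regions genome-wide) and 2 gains, which is 2.11% of its member regions against 0.246% of all. As 1 of these 2 is the CCN1 site that led to the choice of the genes, nothing is read from that share. The third gain was at AJUBA in HCT116, where 0.504% of all regions were gained. The other lines had no gain at the 7 genes, against 0.00142% of all regions in 92-1, 0.075% in 22RV1, 0.0189% in RD, 0.0538% in DU4475 and 0.119% in MV411. With an overlap of 250 bp in place of 100 bp there were 40 losses and 2 gains, with 14 losses in MV411 and 4 at ANKRD1. By gene (100 bp), TEAD1 had 16 losses at 69 regions, ANKRD1 8 at 31, AMOTL2 8 at 43, AJUBA 6 at 35, AXL 6 at 43, CCN2 4 at 32 and CCN1 4 at 21. No single region passed the exact permutation test over the 6 lines, at the 7 genes or elsewhere (301283 tested, 0 lower and 0 higher, lowest adjusted p = 0.0942). At an unadjusted p under 0.05, 6970 regions (2.31%) were lower and 38 higher, and 15 of the 259 tested regions at the 7 genes (5.79%) were lower.

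Peaks near gene ends and in more distant DNA were also counted apart. In RD, strict peaks of the 7 windows more than 1 kb from any gene end went from 33.3 ± 7.77 to 7 ± 1.73 (SD, n = 3), or 21% of DMSO, while those within 1 kb went from 38.3 ± 2.08 to 21 ± 12.1, or 54.8%. Neither pair of groups overlapped. MV411 kept 42.1% of the distant peaks (80 ± 7.81 to 33.7 ± 2.31) and 84.2% of those near ends (25.3 ± 1.15 to 21.3 ± 2.52). In 22RV1 the shares were 49.6% and 69.5%, in DU4475 64.6% and 95.9%, in HCT116 81.7% and 91.9%, and in 92-1 22.4% and 42.9%. The groups overlapped for both kinds in 92-1 and HCT116, and for the peaks near ends in DU4475 and MV411. A375 had 69.6% of its distant peaks and 129% of those near ends, and its groups overlapped in both. The distant share was the smaller one in all 7 lines at these genes. It was also smaller in all 7 lines over the whole genome, where RD kept 27.7% and 63%, MV411 41.6% and 81.9%, and A375 65.6% and 112%. The difference between the 2 kinds of peak was not tested. At the edge of the windows, bands of 10 kb just inside and just outside the 100 kb limit held 112 and 104 strict peaks in DMSO samples, and 79 and 78 in FHT-1015 samples, which are 70.5% and 75%.

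Within single lines, 3 samples against 3 allow 20 assignments, and an exact two-sided test cannot go below p = 0.1. Groups that did not overlap are therefore counts and no calls. MV411 had 6 of the 7 genes lower with no overlap (74.7% of all genes), RD 4 (56.9%), 22RV1 3 (38.1%), 92-1 2 (9%) and DU4475 2 (17.1%). HCT116 and A375 had 0, against 2.46% and 1.12% of genes. None of the 7 was higher with no overlap in any line. Among all genes that occurred for 0% in 92-1, 0.348% in 22RV1, 0.0108% in RD, 0.223% in A375, 0.226% in DU4475, 2.17% in HCT116 and 0.0152% in MV411. At equal length, AMOTL2 was lower with no overlap in 4 lines, TEAD1 in 22RV1 and CCN2 in DU4475, and none of the 7 in 92-1 or MV411 (5.03% and 5.64% of genes). Higher with no overlap were AJUBA in 22RV1 and MV411 and ANKRD1 in 92-1 (7.05% of genes), where list order could decide among tied peaks. None of the 7 was so in RD, A375, DU4475 and HCT116, against 8.21%, 16.1%, 3.57% and 4.79% of genes.

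Among 21 other genes of the Hippo pathway, 16 had fewer strict peaks with FHT-1015 and 0 had more by the exact permutation test, with a median of 59.6% of DMSO. Over all genes 86.2% were lower and the median was 64.5%. TEAD2, TEAD3, LATS1, NF2 and TAOK1 did not pass. YAP1 itself averaged 10.7 strict peaks in DMSO samples and 6.06 in FHT-1015 samples, a difference of −4.61 (adjusted p = 0.000212). AMOTL1, the paralogue of AMOTL2, averaged 10.8 and 4.11, a difference of −6.72 (adjusted p = 2.62e-05). VGLL4, which competes with YAP for TEAD, averaged 14.8 and 5.94 (adjusted p = 2.79e-05), and WWC1 (KIBRA), an upstream activator of the kinases, 13.1 and 5.67 (adjusted p = 2.79e-05, all by the exact permutation test). TEAD4 differed by −5.61 peaks and FAT1, a giant cadherin upstream of the pathway, by −8.11. At equal length, 3 of the 21 were lower and 4 were higher, where 3.77% of all genes were lower and 17.8% higher. AMOTL1 (4.11 against 2.5, adjusted p = 0.00857), VGLL4 (5.72 against 3.78, adjusted p = 0.00316) and WWC1 (5.89 against 3.89, adjusted p = 0.0211) were lower by the exact permutation test. TEAD2 (2.78 against 4.94, adjusted p = 0.00144), TEAD3 (1.61 against 3), NF2 (2.89 against 3.83) and TAOK1 (2.33 against 4) were higher by the same exact test.

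A list of 17 further YAP and TEAD target genes had 17 genes lower among strict peaks, with a median of 53.5% of DMSO, where 86.2% of all genes were lower. GADD45A, a stress response gene, averaged 10 peaks with DMSO and 3.56 with FHT-1015. TGFB2, a secreted growth factor, averaged 13.6 and 5.17, CRIM1 13.9 and 6.67, and MYOF, a membrane repair protein, 10.2 and 4.89. LATS2 and PTPN14, which restrain YAP, stand on both lists. At equal length 3 of the 17 were lower and 0 higher, against 3.77% and 17.8% of all genes. The 3 were ASAP1 (11 against 7.17, adjusted p = 0.00092), RBMS3 (4.78 against 2.78, adjusted p = 0.0044) and DOCK5 (5.94 against 4.06, adjusted p = 0.00576), by the exact permutation test. ASAP1 regulates ARF GTPases, and DOCK5 activates Rac.

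The genes most like CCN1 in strict peaks over the 42 samples, on the scale log2(peaks + 1), were CAPN7 (Pearson r = 0.90), IQCF1 (0.89) and RRP9 (0.89), out of 12544 genes compared. For CCN2 they were SORL1, LOC128092253 and TBPL1, each at 0.92 among 12399 genes. All samples share their list length between genes, and the median r over the genes compared was already 0.71 for CCN1 and 0.69 for CCN2.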

How the data were processed

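The 42 ATAC-seq samples each came with their own peak list, so replicates were not pooled. Per the submitters' processing notes, Bowtie2, Picard, MACS2, limma, HOMER and hg38 were used, with no role or version given. Read shift, duplicate handling and caller settings are stated in none of the labels. In the deposited lists, the fold enrichment is a ratio of the pileup at the summit to the local background, and p and q are on the −log10 scale. The authors' lists also hold the offset of each summit from the interval start, which placed the peaks. Lists started at −log10 p of 2 to 2.04. A p this lenient lets weak peaks in, so strict peaks (−log10 q of at least 5) were used for the main tests.

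Sample groups and replicate numbers came from the labels. Whether biological replicates were separate cultures is not stated, and p-values measure the spread between these samples. The lists hold no read counts, so depth is unknown. Whole-number pileups and a background were recovered from fold and p (100% whole within 0.01 on −log10 p), and the lowest common background stood in for depth. Its part in the number of strict peaks was not tested beyond the thinning described next.

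For each of 19970 RefSeq genes (GRCh38.p14), summits inside the gene or within 100 kb were counted in each sample. FHT-1015 and DMSO were compared by a two-sided exact permutation test of the mean difference, permuting samples within lines, with Benjamini-Hochberg adjustment at 0.05 over all genes with any peak. Regions were 500 bp around summits, called in a sample with an overlap of at least 100 bp, and tested in the same way. The scripts were tested on simulated data. Alternatives were all deposited peaks, −log10 q of at least 10, the 20000 strongest peaks, pileups thinned to 0.5 of the lowest background of the line (−log10 p of at least 5), a 25 kb window, other sets of lines, an overlap of 250 bp, the replicate block and leaving out each sample.

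The gene table gives no strand. Where the promoter table had no entry (CCN1, TEAD1), the nearest gene end was used in place of the start. The genes, the lists of pathway and target genes, and the rules were chosen with earlier results of these data known. All 7 genes are named. So are, for each, the site near the start called in most samples and the sites lost and gained in most lines, with ties broken by the highest rank, and pathway genes by smallest p, at most 10 per list. Analyses used Python 3.11.15, numpy 2.4.6, scipy 1.17.1, numba 0.67.0 and pandas 2.3.3.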

Additional observations from a re-analysis of the deposited data

How the results depend on the processing

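The call of the 7 genes as lower held with −log10 q of at least 10, without 92-1, after thinning and in the replicate block. The number of genes called lower was 17133. It was 0 with all deposited peaks (3874 at an unadjusted p under 0.05, exact permutation test), with 0 of the 7 genes called. It was 748 with the 20000 strongest peaks (3529 higher, 1 of the 7 called), 9732 after thinning (2 higher) and 11334 within 25 kb (1 higher). Without 92-1, 1 gene was higher. Peak names of 92-1, 22RV1, HCT116 and MV411 carry the word small, which the labels do not explain. Settings added after the data were seen gave 9739 lower and 5 higher with 22RV1, HCT116 and MV411 alone. RD and DU4475 alone gave 0 lower (8767 at an unadjusted p under 0.05, exact permutation test), with 0 of the 7 called. So few lines allow few assignments, which limits how small p can be, and nothing is read from that 0. At equal length the difference changed sign for CCN1 (0.06), ANKRD1 (0.56), AJUBA (0.89), AXL (0.56) and TEAD1 (0.56), and that of CCN2 did not pass. For CCN1, ANKRD1 and TEAD1 the largest rise of any tested line was in 92-1, where list order could decide among tied peaks. In the other tested lines these genes went both ways, lower in HCT116 and higher in MV411. Whether their sign changes hold without 92-1 was not tested. The cause of the sign changes was not tested. AMOTL2 at equal length did not pass within 25 kb (−0.94). AJUBA was no longer called with all 7 lines (−2.62, adjusted p = 0.162) or with each interval counted once (adjusted p = 0.064, exact permutation test).

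Leaving out 1 sample at a time gave 16110 to 17918 genes lower, 0 to 1 higher, and 6 to 7 of the 7 genes lower. It gave −1.78 to −1.44 for AMOTL2 at equal length, and 0 to 1 regions called lower. With all 7 lines, which include A375, 4 regions were called lower, and nothing is read from that count. Gains at the 7 genes numbered 3 with strict peaks, 14 with all deposited peaks and 2 with an overlap of 250 bp, without the CCN1 site. Losses numbered 52, 66 and 40. The overlap of 250 bp acted unequally on the lines. Strict regions called in any sample went from 155313 to 104114 in MV411 and from 116011 to 73448 in 22RV1. In RD they went from 42287 to 40797 and in DU4475 from 55727 to 52696, so differences between lines at this setting may reflect processing.

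Most same-numbered samples of a line did not vary together: 4 of 21 pairs had a correlation above 0.1, with a range of −0.17 to 0.38. The 4 pairs were replicates 1 and 3 of 92-1 (0.26 and 0.22) and replicates 2 and 3 of A375 (0.38 and 0.16). The labels give the samples only a shared number. With the replicate block 16922 genes were lower and 0 higher (exact permutation test, 17181 and 0 at an unadjusted p under 0.05), all 7 genes stayed lower, and AMOTL2 at equal length kept −1.61 (adjusted p = 0.0272). No region was called with the block.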
